A study of Homo sapiens with 6 samples.

Results

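The let-7 and miR-98 family was followed here as the 9 mature guide strands hsa-let-7a-5p, hsa-let-7b-5p, hsa-let-7c-5p, hsa-let-7d-5p, hsa-let-7e-5p, hsa-let-7f-5p, hsa-let-7g-5p, hsa-let-7i-5p and hsa-miR-98-5p, written below without the species prefix. The members were taken by name and not by any measured value, and all 9 were present among the 832 miRNAs of the expression table. Of those 832 entries, 782 carried miRBase names and 50 were predicted miRNAs. Testing was limited to the 517 miRNAs detected (count above 0) in 3 or more libraries, and all 9 members were among them.

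The libraries came from small RNA sequencing of extracellular vesicles (EVs) shed by MDA-MB-231, a triple-negative breast cancer cell line of human origin with mesenchymal features. One group, 231 EV, came from wild-type cells (n = 3), and the other, 231 ACO1KD EV, from cells with a knockdown of ACO1 (n = 3). ACO1 is cytosolic aconitase, which binds RNA at iron-responsive elements when it lacks its iron-sulphur cluster, and the study examined its part in sending miR-33a into EVs. Both groups were the same cell line kept in medium depleted of EVs, the vesicles were collected by ultracentrifugation, and how the knockdown was made is not given in the sources used here. Since small RNA libraries hold no ACO1 mRNA, the knockdown could not be checked in these data.

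A miRNA guide strand is loaded into an Argonaute protein and pairs with messenger RNAs through its seed, the bases near the 5′ end. The let-7 family is abundant in differentiated cells, where it holds down growth-promoting targets such as RAS, HMGA2 and MYC, and it is widely described as tumour-suppressive. Its precursors are held back in stem-like cells by the LIN28 proteins. Several members are made from more than 1 hairpin gene, so a mature count does not tell which locus was transcribed.

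The 9 mature sequences are shown because the members are told apart only by bases outside the shared seed. They are given 5′ to 3′ from RefSeq (GRCh38.p14), with capitals marking the seed, bases 2 to 8.
let-7a-5p: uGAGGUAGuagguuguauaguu
let-7b-5p: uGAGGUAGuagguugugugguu
let-7c-5p: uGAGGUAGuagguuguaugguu
let-7d-5p: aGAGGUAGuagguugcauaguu
let-7e-5p: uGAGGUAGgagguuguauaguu
let-7f-5p: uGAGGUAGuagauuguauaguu
let-7g-5p: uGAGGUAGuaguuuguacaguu
let-7i-5p: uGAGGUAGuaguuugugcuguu
miR-98-5p: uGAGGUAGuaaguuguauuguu

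All 9 matched a RefSeq entry, all were 22 bases long and all carried the seed GAGGUAG, which 11 of the 2370 mature names in RefSeq hold (0.464%). Against let-7a, with positions counted from 1 at the 5′ end, let-7c differed by A19G, let-7e by U9G and let-7f by G12A. These 3 members are thus 1 base away from the most abundant strand, and let-7b and let-7c are also 1 base apart. The remaining members differed from let-7a at 2 or more positions. These were A17G and A19G in let-7b, U1A and U16C in let-7d, G12U and U18C in let-7g, and G11A and A19U in miR-98. Let-7i differed most, by G12U, A17G, U18C and A19U. A read with 1 sequencing error, or a read cut short, can therefore be assigned to a neighbour, and the counts of let-7c, let-7e and let-7f next to the far larger count of let-7a are uncertain to that extent.

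The members are encoded by 12 hairpins, all placed at the same GRCh38 positions by RefSeq and GENCODE. MIRLET7A1 (chr9:94175957-94176036), MIRLET7F1 (chr9:94176347-94176433) and MIRLET7D (chr9:94178834-94178920) lay within 2964 bases of each other in an intron of the long non-coding RNA AL158152.2. MIRLET7A3 (chr22:46112749-46112822) and MIRLET7B (chr22:46113686-46113768) lay within 1020 bases, in an exon of MIRLET7BHG. MIRLET7F2 (chrX:53557192-53557274) and MIR98 (chrX:53556223-53556341) lay within 1052 bases on the minus strand, in an intron of HUWE1. MIRLET7A2 (chr11:122146522-122146593, minus strand) was intronic in MIR100HG, MIRLET7C (chr21:16539828-16539911) in MIR99AHG and MIRLET7E (chr19:51692786-51692864) in SPACA6. MIRLET7G (chr3:52268278-52268361, minus strand) was intronic in WDR82 and MIRLET7I (chr12:62603686-62603769) in the non-coding RNA AC048341.1. Let-7a thus pools 3 hairpins and let-7f pools 2.

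The 231 EV libraries held 224948 to 230562 miRNA counts and the 231 ACO1KD EV libraries 175924, 67873 and 157322, so 1 count was worth 4.34 to 4.45 TPM in the former and 5.68, 14.7 and 6.36 TPM in the latter. Here TPM is a miRNA's count divided by the library total and put on a common scale, with no term for length, and all 9 members have the same length. Replicate 3 of the 231 ACO1KD EV group stood nearer to the 231 EV libraries in miR-21-5p and was the lowest of its group in 6 of 9 members. Calls of members that it changed are given without it. The defining markers of an epithelial state were low, with a summed level of 858 to 985 TPM over 6 miRNAs in 231 EV and 619 to 992 TPM in 231 ACO1KD EV. The 5 miRNAs typical of mesenchymal-like breast cancer lines summed to 170168 to 171381 and 189198 to 195994 TPM, with 2 of 5 higher and 2 of 5 lower in every knockdown library. Under TMM 3 of these 5 were called lower, miR-100-5p (-0.89), miR-221-3p (-0.87) and miR-222-3p (-0.56), as was 1 of the 6 epithelial ones, miR-205-5p (-0.93). The 6 blood cell markers summed to 9858 to 11177 TPM in 231 EV and to 14009 to 15382 TPM in 231 ACO1KD EV, with 3 of 6 higher in every knockdown library, 2 of 6 lower in every one, and no marker of any list was at 0 in all libraries. Of the blood markers, miR-223-3p (0.51) was called higher and miR-451a (-0.94) and miR-486-5p (-1.08) lower on the log2 scale under TMM. Without replicate 3 of the knockdown group, TMM called 2 of 6 blood markers higher, with miR-142-5p (0.47) added, and 2 lower. That fit called 25 of its 476 tested miRNAs higher and 40 lower. The same mesenchymal-like and epithelial markers were called lower in it, among them miR-221-3p (-1.17) and miR-205-5p (-1.48). Among all tested miRNAs, 22.6% were higher in every knockdown library in TPM, and the share lower in every one was not counted. TMM called 13 of the 517 tested miRNAs higher and 31 lower. The part of these markers in the results was not tested. The liver marker miR-122-5p ranged from 1094 to 1324 TPM and from 985 to 1887 TPM.

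The family took a larger share of the miRNA counts in 231 ACO1KD EV than in 231 EV. Its share was 16.4%, 14.8% and 16.1% in the 231 EV libraries, and 22.4%, 22.5% and 19.9% in the 231 ACO1KD EV libraries. The widest Wilson 95% interval ran from 22.2 to 22.8%, in the shallowest library, and such intervals cover counting error only, since reads amplified by PCR are not independent molecules. The groups did not overlap: the means were 15.8 ± 0.839% and 21.6 ± 1.47% (SD, n = 3 each), a difference of 5.82 percentage points and a ratio of 1.37. Without replicate 3 of the knockdown group the difference was 6.67 percentage points. These are shares of a library, so more let-7 per vesicle and less of other miRNAs cannot be told apart.

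**Figure D1:**
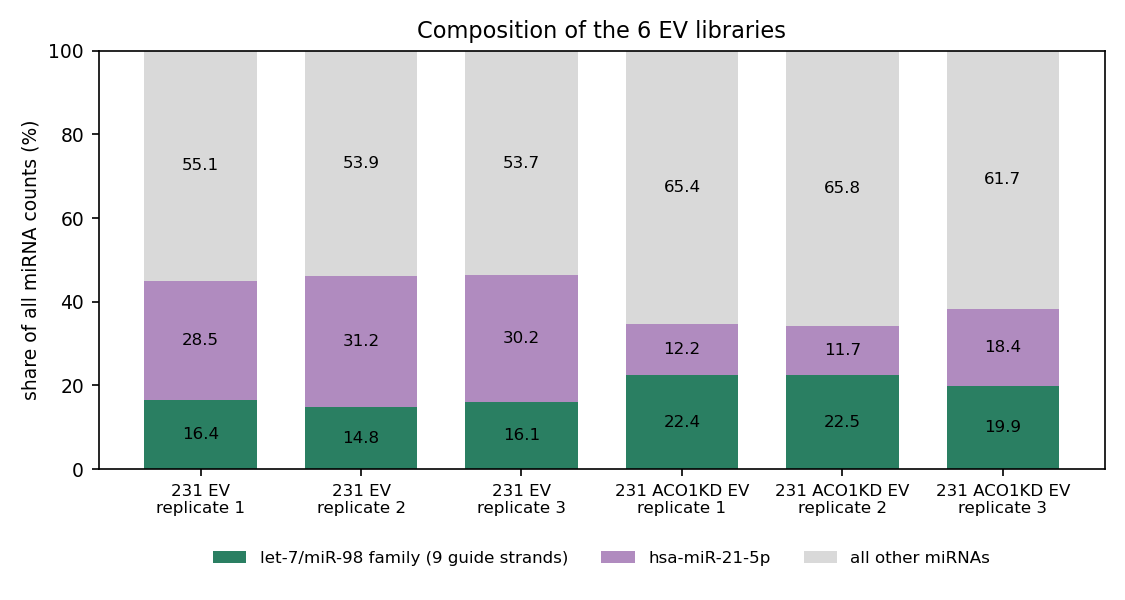
Stacked bars of the share (%) of all miRNA counts in each of the 6 EV libraries taken by the 9 family members (green), hsa-miR-21-5p (purple) and all other miRNAs (grey). The family goes from 14.8 to 16.4% in 231 EV to 19.9 to 22.5% in 231 ACO1KD EV, while hsa-miR-21-5p goes from 28.5 to 31.2% down to 11.7 to 18.4%.

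The family's share moved opposite to that of miR-21-5p, the growth-promoting miRNA that was the most abundant entry of the 231 EV libraries. MiR-21-5p took 29.99 ± 1.38% of the counts in 231 EV and 14.1 ± 3.75% in 231 ACO1KD EV (SD, n = 3 each). It fell by 1.44 on the log2 scale after TMM scaling (SE 0.12, adjusted p = 7.14e-31 by the quasi-likelihood test of edgeR, Benjamini-Hochberg adjusted). With miR-21-5p taken out of the denominator, the family's share was 23.0%, 21.6% and 23.1% in 231 EV and 25.6%, 25.5% and 24.4% in 231 ACO1KD EV. The groups still did not overlap, but the difference shrank to 2.60 percentage points and the ratio to 1.12. All miRNAs outside the family other than miR-21-5p went from 54.2 ± 0.757% to 64.3 ± 2.28%, a ratio of 1.19, so the rest of the table gained share as well.

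Within the family, let-7a-5p led by a wide margin. It stood at 82277, 71911 and 80362 TPM in 231 EV and at 108496, 108084 and 101887 TPM in 231 ACO1KD EV, and was the second most abundant miRNA of all 6 libraries. Let-7f-5p followed with 25588, 23902 and 25688 TPM against 40336, 38823 and 32087 TPM. Both were higher in every knockdown library than in any 231 EV library, by ratios of the means of 1.36 and 1.48.

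Let-7i-5p and let-7b-5p were level with each other. Let-7i-5p was measured at 21512, 20389 and 21808 TPM in 231 EV and at 30093, 30321 and 24815 TPM in 231 ACO1KD EV. Let-7b-5p was measured at 21814, 20042 and 20924 TPM and at 28694, 30351 and 24421 TPM. Their ratio was 1.02 ± 0.0281 in 231 EV and 1.02 ± 0.0253 in 231 ACO1KD EV, with let-7i above let-7b in 4 of 6 libraries, so their order was not resolved.

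Let-7g-5p and let-7e-5p formed the next tier. Let-7g-5p stood at 5730, 5075 and 4978 TPM in 231 EV and at 6560, 6129 and 6159 TPM in 231 ACO1KD EV, with a ratio of the means of 1.19. Let-7e-5p stood at 3534, 3357 and 3440 TPM and at 5372, 6026 and 5053 TPM, and its ratio of 1.59 was the highest of the 9. As a result let-7g exceeded let-7e 1.62, 1.51 and 1.45 times in 231 EV but 1.22, 1.02 and 1.22 times in 231 ACO1KD EV, and in replicate 2 of the knockdown the pair was nearly equal.

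The lowest members were let-7c-5p, let-7d-5p and miR-98-5p. Let-7c-5p was at 1725, 1657 and 1813 TPM in 231 EV and at 2410, 2637 and 2079 TPM in 231 ACO1KD EV. Let-7d-5p was at 1623, 1622 and 1702 TPM and at 1881, 1915 and 2034 TPM. MiR-98-5p was at 342, 373 and 364 TPM and at 591, 354 and 483 TPM, from counts of 77, 86 and 82 and of 104, 24 and 76, and it was the only member whose groups overlapped. Let-7c was above let-7d in all 6 libraries, though by ratios of only 1.02 to 1.07 in 231 EV, and miR-98 was last throughout.

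**Figure D2:**
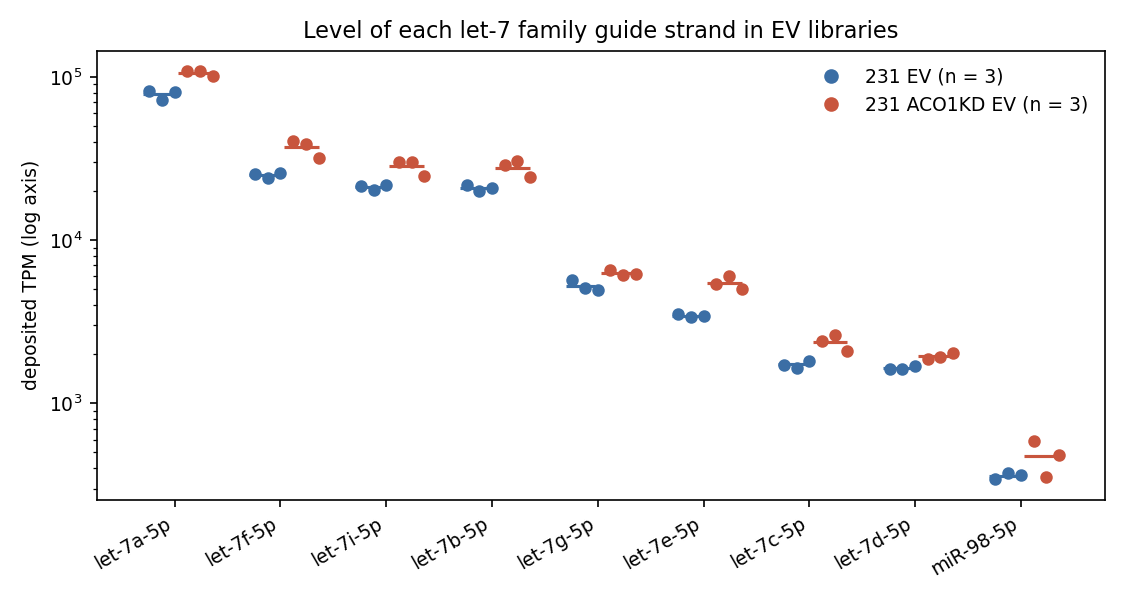
Deposited TPM (log axis) of the 9 guide strands in each library, one dot per library and a short line at each group mean (n = 3 per group). Levels span from about 342 TPM for miR-98-5p to 108496 TPM for let-7a-5p, and 8 of 9 members have all 3 knockdown dots above all 3 dots of 231 EV.

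In TPM, then, 8 of 9 members were higher in every knockdown library, 1 overlapped and 0 were lower. Among all tested miRNAs 22.6% had every knockdown library above every 231 EV library. Replicates of most members were tight. The coefficient of variation of TPM ran from 2.57% (let-7e) to 7.78% (let-7g) in 231 EV, and from 3.49% (let-7a) to 11.8% (let-7f) in 231 ACO1KD EV, where miR-98 stood apart at 25.0%. With 3 libraries against 3, an exact permutation test of a single member cannot go below p = 0.1, so the tests below rest on a fit across all 517 miRNAs.

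The change of each member depended on how the libraries were scaled. Under TMM, a scaling by the typical miRNA that is meant to withstand shifts of a few abundant ones, 0 of 9 members passed an adjusted p of 0.05 by edgeR's quasi-likelihood test, and 1 of 9 had an unadjusted p under 0.05. DESeq2 called 0 of 9 too, also with 1 of 9 under 0.05 unadjusted, while limma on log2(TPM + 1), which is scaled by library totals, called 6 of 9 (all higher, against 11.4% of all tested miRNAs). Over all tested miRNAs, TMM called 8.51%, of which those higher were 2.51% of the tested. Dividing by library totals, as TPM does, 5 of 9 members were higher, against a background of 11.2% higher and 2.51% lower. That scaling moved the median log2 fold change of all 517 miRNAs from -0.03 to 0.32, and the members' median moved with it from 0.08 to 0.43. Relative to the median of all miRNAs, the members' median was thus 0.12 under TMM and 0.11 under library totals.

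Let-7e-5p, which is encoded beside miR-99b and miR-125a, had the largest estimate under both scalings. After TMM its level was 3899 ± 180 CPM in 231 EV and 4836 ± 202 CPM in 231 ACO1KD EV (counts over the scaled library size, SD, n = 3 each), and it was the only member whose groups did not overlap on that scale, where 11.6% of all tested miRNAs had every knockdown library above. Its log2 fold change was 0.31 (SE 0.16, adjusted p = 0.257 by the quasi-likelihood test of edgeR, Benjamini-Hochberg adjusted, 95% interval 0.00478 to 0.62). With library totals the value was 0.67 (SE 0.16, adjusted p = 0.000389, same test).

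Let-7f-5p, from the chromosome 9 and X clusters, was second. Its log2 fold change was 0.21 under TMM (SE 0.13, adjusted p = 0.393) and 0.57 under library totals (SE 0.12, adjusted p = 0.000159), both by the quasi-likelihood test of edgeR, Benjamini-Hochberg adjusted. Without replicate 3 of the knockdown group, let-7e-5p (0.35, adjusted p = 0.0478) and let-7f-5p (0.29, adjusted p = 0.0499) passed under TMM by the same test, giving 2 of 9 calls in place of 0. In that fit the miRNAs called higher over the whole table were 5.25%, against 2.51% with all libraries.

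The abundant let-7a-5p, let-7b-5p and let-7i-5p had log2 fold changes of 0.08, 0.05 and 0.06 under TMM, with SE of 0.12 to 0.13 and adjusted p of 0.799 to 0.901 by the quasi-likelihood test of edgeR, Benjamini-Hochberg adjusted. With library totals they were 0.44, 0.41 and 0.42, with adjusted p = 0.00214 for let-7a-5p, 0.0127 for let-7b-5p and 0.00987 for let-7i-5p by the same test. When each library was left out in turn under library totals, let-7a-5p, let-7e-5p and let-7f-5p passed in 6 of 6 fits. Let-7b-5p and let-7i-5p passed in 1 of 6, the fit without replicate 3 of the knockdown group, where let-7c-5p passed as well (6 of 9 calls, against 3 of 9 in each of the others). Of all tested miRNAs, 13.7% were called higher in that fit and 6.85 to 8.78% in the others.

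The other 4 members did not pass under either scaling. Under TMM the log2 fold change was 0.09 for let-7c-5p (95% interval -0.25 to 0.43), -0.12 for let-7d-5p (-0.47 to 0.23), -0.10 for let-7g-5p (-0.39 to 0.20) and 0.09 for miR-98-5p (-0.41 to 0.58). With library totals the estimates of let-7d-5p and let-7g-5p turned positive, at 0.24 and 0.26, and those of let-7c-5p and miR-98-5p were 0.45 and 0.43. Their adjusted p values ran from 0.0676 for let-7c-5p to 0.442 for let-7d-5p by the quasi-likelihood test of edgeR, Benjamini-Hochberg adjusted. When library totals were counted without miR-21-5p, 0 of 9 members passed that test, and the members' median was 0.14 against 0.03 for all miRNAs.

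**Figure D3:**
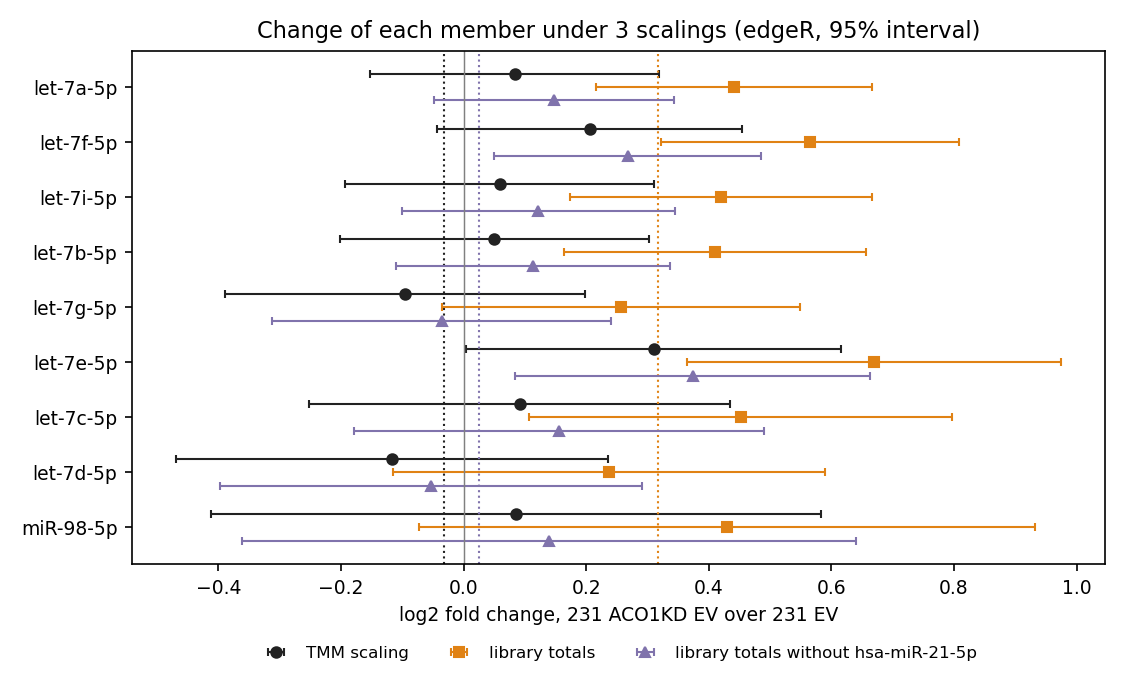
Log2 fold change of each member, 231 ACO1KD EV over 231 EV, from edgeR under TMM (black circles), library totals (orange squares) and library totals without hsa-miR-21-5p (purple triangles), with 95% intervals. Dotted lines mark the median of all 517 miRNAs under each scaling (-0.03, 0.32 and 0.03); the 9 members shift together with that line, with let-7e-5p highest and let-7d-5p lowest under each.

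The differences between members changed little with the scaling, since a scaling adds nearly the same amount to each. From the lowest to the highest member, the log2 fold changes spanned 0.43 under TMM and 0.43 under library totals. The common dispersion estimated over the whole table was a biological coefficient of variation of 20.8%. The tests rest on a quasi-likelihood dispersion as well, so that value is not the spread assumed for each member. Under TMM with all libraries, the quasi-likelihood dispersion too was taken from all tested miRNAs, not from each member. After TMM scaling the members' own coefficients of variation were 4.62 to 8.88% in 231 EV and 4.10 to 10.7% in 231 ACO1KD EV, again apart from miR-98 with 28.4% in the latter.

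The make-up of the family, each member's count over the summed counts of the 9, needs no scaling between libraries. Let-7a made up 49.5 ± 0.889% of the family in 231 EV and 49.2 ± 1.72% in 231 ACO1KD EV (SD, n = 3 each), a difference smaller than the spread between replicates. Let-7i went from 13.5 to 13.1%, let-7b from 13.3 to 12.9% and let-7c from 1.10 to 1.10%, all with overlapping groups. Let-7g (3.33 ± 0.214 and 2.92 ± 0.183%), let-7d (1.05 and 0.904%) and miR-98 (0.229 and 0.221%) also overlapped.

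Let-7e and let-7f were the 2 of 9 members with a higher part in every knockdown library, and 0 of 9 were lower in every one. Relative to the family total, 8.32% of all tested miRNAs were above and 13.5% below in every knockdown library. Let-7e made up 2.15%, 2.26% and 2.14% of the family in 231 EV and 2.39%, 2.68% and 2.54% in 231 ACO1KD EV. The lowest knockdown value, 2.39% (Wilson 95% interval 2.25 to 2.55%), and the highest 231 EV value, 2.26% (2.11 to 2.43%), overlapped in their counting error. Let-7f made up 15.6%, 16.1% and 15.9% against 17.97%, 17.3% and 16.1%, and its groups parted by less than 0.1 percentage points, well inside the counting interval of 15.7 to 16.5% in replicate 3 of the knockdown.

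Leaving out a library can only add members without overlap. Lower in every remaining knockdown library were 3 of 9 without replicate 3 of that group (let-7a, let-7d and let-7g), against 26.1% of tested miRNAs. Without replicate 1 of 231 EV, 2 of 9 were lower (let-7d and let-7i), against 18.0%. Without replicate 3 of 231 EV it was 1 of 9 (let-7g), and without replicate 2 of the knockdown group 1 of 9 (let-7b). The share of tested miRNAs was not counted for the last pair. Among neighbours in the order of levels, let-7f over let-7i went from 1.18 ± 0.00877 to 1.30 ± 0.0316 and let-7e over let-7c from 1.99 to 2.31, while let-7g over let-7e went from 1.53 ± 0.0881 to 1.15 ± 0.117, each without overlap between the groups. Let-7a over let-7f, 3.12 ± 0.104 and 2.88 ± 0.257, overlapped, as did the other neighbouring pairs. Each pair that parted held let-7e or let-7f, so these ratios restate the higher part of those members in the family.

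**Figure D4:**
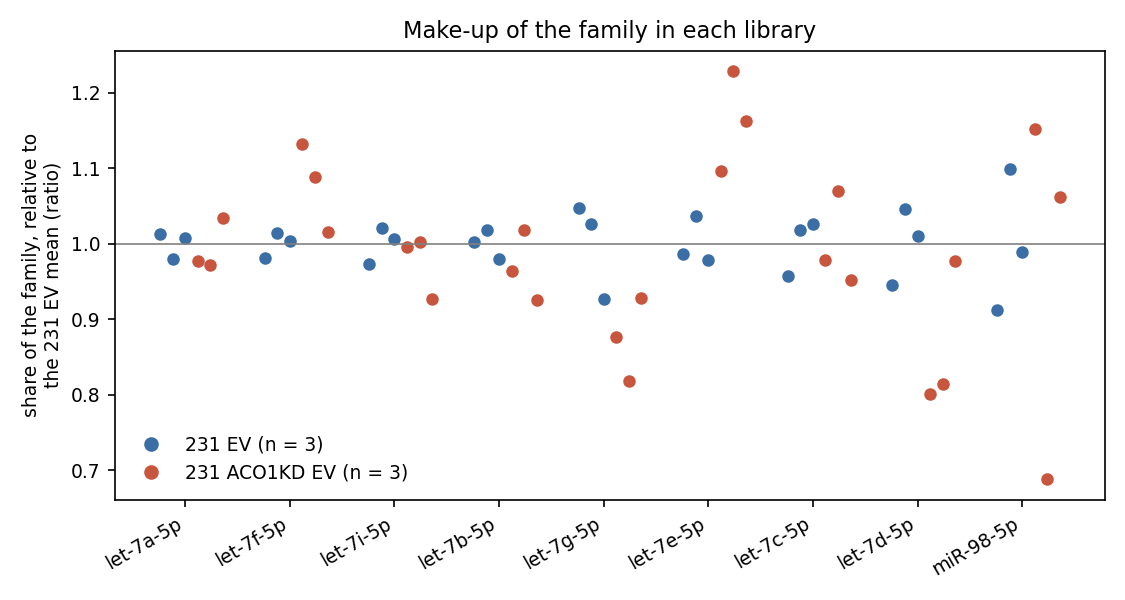
Each member's share of the summed family counts, divided by its mean share in 231 EV (ratio, 1 = the 231 EV mean), one dot per library (n = 3 per group). All 3 knockdown dots of let-7e-5p and let-7f-5p lie above those of 231 EV, narrowly for let-7f-5p, while the other 7 members overlap and miR-98-5p scatters most.

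In the sequences above, let-7e is the member with U9G. That base gives it the letters GGAG, a tetranucleotide known as a sorting motif of EV miRNAs, starting at base 8, and 1 of 9 members held it against 372 of 2370 mature RefSeq names (15.7%). The motif was looked up after the values of let-7e had been seen, only the given strand of the mature miRNA was searched, and a match is a description of letters. CAUUG, the letters the study examined as an ACO1 contact in miR-33a-5p, was in 0 of 9 members and in 41 of 2370 names (1.73%).

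The hairpins' other strands, the 3p arms, were scarce in these EVs. All 11 named 3p arms were in the table and were tested, and together they had 536 counts beside 193407 of the 5p strands, or 0.276% of both. Per library the 3p part was 0.250 ± 0.0595% in 231 EV and 0.309 ± 0.0103% in 231 ACO1KD EV (SD, n = 3 each), with overlapping groups. Under TMM 0 of 11 passed (1 of 11 at an unadjusted p under 0.05, let-7f-2-3p) and their median log2 fold change was 0.62, against -0.03 for all miRNAs. The 3p median rested on few counts: it was 0.05 without replicate 1 of the knockdown group, where 10 arms were tested, and 0.16 over the 9 arms with a mean TPM of at least 10. Under library totals 2 of 11 were higher, let-7d-3p and let-7f-2-3p, against 11.2% of all tested miRNAs. Let-7f-2-3p had no more than 7 counts in any library. When any library was left out, 0 or 1 of the 3p arms passed.

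Let-7d had the highest 3p part of the 9 members, with the 5p strand still far ahead. Let-7d-3p had 19, 29 and 22 counts in 231 EV and 30, 14 and 37 in 231 ACO1KD EV, or 84.5, 126 and 97.8 TPM and 171, 206 and 235 TPM. In TPM it was higher in every knockdown library, as were 5 of 11 3p arms, itself included, and 22.6% of all tested miRNAs. Its log2 fold change was 0.63 under TMM (SE 0.33, adjusted p = 0.265) and 0.98 under library totals (SE 0.33, adjusted p = 0.0245), both by the quasi-likelihood test of edgeR, Benjamini-Hochberg adjusted. Of the let-7d counts, 4.95%, 7.20% and 5.43% were 3p in 231 EV and 8.31%, 9.72% and 10.4% in 231 ACO1KD EV. The means were 5.86 ± 1.18% and 9.47 ± 1.05% (SD, n = 3 each) without overlap, while the 3p parts of all other members overlapped. The Wilson 95% intervals for let-7d were wide, 5.06 to 10.14% in replicate 2 of 231 EV and 5.88 to 11.6% in replicate 1 of the knockdown. Let-7a-3p, the other 3p arm above a mean of 100 TPM, was 0.108%, 0.211% and 0.166% of its counts with let-7a-5p in 231 EV and 0.173%, 0.177% and 0.150% in 231 ACO1KD EV, and these overlapped. Its log2 fold change was 0.14 under TMM and did not pass.

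Other miRNAs share the hairpin clusters or the seed. MiR-202-3p, miR-4458 and miR-4500, which carry this seed or a near copy of it, were 0 of 3 in the table. MiR-99a, miR-99b, miR-100, miR-125a and miR-125b are transcribed beside let-7c, let-7e and let-7a in 3 clusters. Under TMM 1 of these 5 passed, against 8.51% of all tested miRNAs. That was miR-100-5p, which lies with MIRLET7A2 in MIR100HG and stood at 30532, 31679 and 35892 TPM in 231 EV and at 17962, 19743 and 29837 TPM in 231 ACO1KD EV. It fell by 0.89 on the log2 scale (SE 0.13, adjusted p = 3.37e-10 by the quasi-likelihood test of edgeR, Benjamini-Hochberg adjusted), with replicate 3 of the knockdown closest to 231 EV. As for miR-21-5p, the SE and p-value give no weight to the spread of miR-100-5p itself. Without that replicate its log2 fold change was -1.18.

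MiR-125a-5p, the neighbour of let-7e, stood at 5966, 5409 and 5253 TPM and at 9623, 9562 and 6890 TPM, and miR-99b-5p, from the same cluster, at 3330, 3344 and 3613 TPM and at 4906, 5142 and 3521 TPM. Under TMM their log2 fold changes were 0.29 and 0.03, and those of miR-125b-5p and miR-99a-5p were 0.10 and -0.19, none past the threshold. Without replicate 3 of the knockdown group miR-125a-5p passed under TMM (0.42, SE 0.11, adjusted p = 0.00562 by the quasi-likelihood test of edgeR, Benjamini-Hochberg adjusted). With miR-100-5p that made 2 of 5, in a fit that called 65 of 476 tested miRNAs. Under library totals 3 of 5 passed, with miR-125a-5p (0.65) and miR-125b-5p (0.46) higher and miR-100-5p lower (-0.54). Of all tested miRNAs, that scaling called 11.2% higher and 2.51% lower. In TPM the ratios of the means were 1.59 for let-7e-5p, 1.57 for miR-125a-5p and 1.32 for miR-99b-5p, whose groups overlapped, and the differences between them were not tested. MiR-100-5p was lower in TPM where let-7a-5p was higher.

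By the smallest distance between centred log2(TPM + 1) profiles over the 6 libraries, the miRNAs most like the family sum were miR-125b-5p (0.133), miR-194-5p (0.147), miR-25-3p (0.172), miR-26b-5p (0.210) and miR-27b-3p (0.216), among 187 miRNAs with a mean of at least 100 TPM whose median distance was 0.757. MiR-125b-5p went from 67609 ± 3778 to 92867 ± 11482 TPM and miR-25-3p from 14261 ± 1289 to 18562 ± 1063 TPM (SD, n = 3 each). All of these share the library totals with the family, and the likeness is a description.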

How the data were processed

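Small RNA libraries of 3 samples of 231 EV and 3 of 231 ACO1KD EV were compared, grouped by the genotype in the labels. Nothing in the labels ties the replicates to separate cultures, so p-values speak of these libraries only. In the TMM fit with all 6 libraries the prior degrees of freedom were infinite. Its p-values therefore use a spread pooled over all tested miRNAs, with no weight on a miRNA's own replicates. The authors trimmed the reads, kept those of miRNA length, removed other RNA classes by Rfam and assigned the rest to miRBase miRNAs or predicted ones; Bowtie2, StringTie and hg38 are named in the submitters' processing notes. They deposited a table of counts and of TPM per miRNA. The deposited TPM equalled the count over the library total on a fixed scale, with no length term. Counts were fitted with edgeR 4.0.16 (glmQLFit, glmQLFTest, TMM, R 4.3.3) across the 517 miRNAs detected in 3 or more libraries (count above 0), with a threshold of 0.05 after Benjamini-Hochberg adjustment. SE is the absolute log2 fold change over the square root of F, and 95% intervals use the normal quantile. The scripts were tested on simulated data.

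DESeq2 1.42.0 and limma 3.58.1 on log2(TPM + 1) or log2(TPM + 10), other scalings, filters, a robust fit, a replicate block and leaving out each library were alternatives; the robust fit with library totals and the left-out libraries under library totals were added after seeing the data. Libraries of 1 group differed beyond sampling noise (chi-square over its degrees of freedom 3.64 to 22.6), so none was counted as a duplicate. The members and lists were chosen with earlier results of these data known. Named were all 9 members, miR-21-5p, and miRNAs of the 3p and cluster lists at a mean of 100 TPM or past the test. Cell type markers past the test, the liver marker miR-122-5p, which did not pass, and the 5 miRNAs closest to the family sum were named too.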

Additional observations from a re-analysis of the deposited data

How the results depend on the processing

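With TMM and all 6 libraries 0 of 9 members passed the test and the members' median log2 fold change was 0.08. The number of members passing was 5 with library totals, 6 with limma on log2(TPM + 1), 6 with limma on log2(TPM + 10), and 5 with the robust fit and library totals, and the median was then 0.43, 0.41, 0.41 and 0.43. Scaled by the family's own total, the median was -0.0202, as that scaling sets the family's sum equal. In all other alternatives with TMM-like scalings or filters 0 of 9 passed. With 1 library left out under TMM, 0 to 2 members passed, 2 only without replicate 3 of 231 ACO1KD EV. With 1 library left out under library totals, chosen after seeing the data, 3 passed in 5 of the fits and 6 without replicate 3 of 231 ACO1KD EV. The median then was 0.44, 0.39 and 0.44 without replicates 1, 2 and 3 of 231 EV, and 0.39, 0.37 and 0.50 without those of 231 ACO1KD EV.

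Signs near 0 turned with the scaling. By family totals let-7a-5p was at -0.0082, let-7b-5p at -0.0453, let-7c-5p at -0.00264, let-7i-5p at -0.0368 and miR-98-5p at -0.0202, and by TMM without the 10 highest miRNAs let-7b-5p was at -0.0110 and let-7i-5p at -0.00192. Let-7d-5p, -0.12 under TMM, was 0.24 with library totals, robust or not, and 0.24 with both limma fits. With libraries left out under library totals it was 0.23, 0.23 and 0.26 for 231 EV and 0.26, 0.25 and 0.20 for 231 ACO1KD EV. Let-7g-5p, -0.10 under TMM, was 0.26 in those full fits, and 0.32, 0.23 and 0.22, then 0.22, 0.27 and 0.27, with libraries left out. With 1 library left out under TMM, miR-98-5p ranged from -0.0894 without replicate 1 of 231 ACO1KD EV to 0.27 without its replicate 2, the shallowest library. None of these estimates passed the test, and the cause of each turn other than the scaling itself was not tested.

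The family's share differed by 5.82 percentage points, and by 2.60 without miR-21-5p among the counts. With 1 library left out it differed by 5.34 to 6.67. The number of members whose part of the family did not overlap was 2, and 2 to 5 with 1 library left out, which can only keep or raise it. The 3p arms that passed went from 0 to 2 and the cluster partners from 1 to 3 with library totals or limma, and the partners to 2 under TMM without replicate 3 of 231 ACO1KD EV. The labels do not say whether libraries of the same replicate number were prepared together. Deviations of same-numbered libraries correlated at 0.113, 0.117 and 0.00045, which cannot settle it. With the replicate number as a block, 0 of 9 members passed and the median was 0.06. At 67873 counts in the shallowest library, differences in the 3p arms and in miR-98-5p were at the limit of counting error.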
